A study of Xenopus laevis with 6 samples.

Results

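Heparan sulfate is a long sulfated sugar chain that is built in the Golgi apparatus on a small set of core proteins. The probe sets (groups of short oligonucleotides that together read 1 transcript) for its enzymes and core proteins were examined in the early gastrula of the frog Xenopus laevis. The members were chosen by name: 48 genes for the enzymes, their donors and the core proteins were listed, and a probe set was taken where the platform annotation gave it 1 gene symbol and that symbol, without the suffix L or S, was on the list. This gave 62 of 32539 probe sets, which read 37 gene copies of 26 genes. The suffixes mark the copies of a gene on the L and S subgenomes of this allotetraploid frog.

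RNA came from whole embryos at Nieuwkoop and Faber stage 10.5, hybridised to Affymetrix Xenopus laevis genome version 2.0 arrays. Per the labels, 3 control samples received a mispair (mismatch) morpholino, and the other 3 received a morpholino (a synthetic antisense oligomer) directed at Ext1, a subunit of the heparan sulfate polymerase. In both groups the dose was 20 ng, given when embryos had 2 cells, the incubator was at 16 degrees Celsius, and each sample pooled 5 embryos. The labels used here give no strain and do not say whether the Ext1 morpholino blocks translation or splicing.

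The samples could not be compared, because the 6 columns of the value table used here held the same profile. Whether they became proportional in the deposit or in the making of this table was not tested. In all 30 ordered pairs of columns, a single factor related the columns at all probe sets within the rounding of the last decimal, with factors between 0.9894 and 1.0239 relative to the first control. The ext1.S probe set with the highest signal shows this: it was at 523.11, 518.45 and 532.93 under the 3 control names and at 517.55, 535.61 and 534.26 under the 3 Ext1 morpholino names, which are the same factors as for every other gene. All levels below are therefore the mean of the 6 columns, as 1 profile with no error and no group. They say nothing about what the Ext1 morpholino does to any of these genes.

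Heparan sulfate is made in a fixed order of steps. A xylose and a short linker are put on serines of a core protein, the chain is lengthened by alternating glucuronic acid and N-acetylglucosamine, and the chain is then modified by N-sulfation, epimerisation of glucuronic acid, and sulfation at the 2-O, 6-O and 3-O positions. The sulfation pattern governs which growth factors and morphogens bind, and in vertebrate embryos the chains take part in FGF, Wnt and BMP signalling and in gastrulation movements. The core proteins are mainly the glypicans, which are held on the membrane by a lipid anchor, the syndecans, which span it, and matrix proteins such as perlecan, agrin and collagen XVIII.

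Every step had a measured gene, but not every gene was covered. Of the 48 genes, 26 had a probe set with 1 symbol and 22 had none. The donor enzymes and transporter (4 of 4 genes) and the syndecans (4 of 4) were covered in full, as were the epimerase glce and the 2-O-sulfotransferase hs2st1, each the single gene of its step. Coverage was thin for N-sulfation, where ndst1 was measured and ndst2, ndst3 and ndst4 were not, and for 3-O-sulfation, with 2 of 7 genes. For removal, sulf2 was measured and sulf1, hpse and hpse2 were not. Among the core proteins, gpc1, gpc3, gpc5, gpc6, agrn and hspg2 had no such probe set, nor did xylt2 and b3galt6 of the linker, extl1 of elongation, hs6st2 and hs6st3, and hs3st2, hs3st3b1, hs3st4, hs3st5 and hs3st6.

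**Figure D1:**
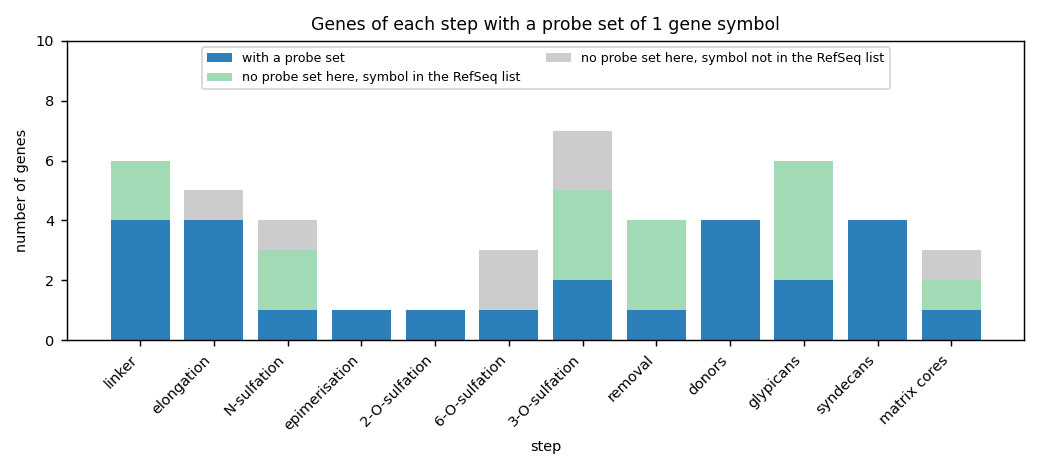
Number of genes (vertical axis) at each step of heparan sulfate synthesis (horizontal axis) that had a probe set with 1 gene symbol, in blue. Genes with none are green where the RefSeq gene list of this frog holds the symbol (15 of 22) and grey where it does not (7 of 22).

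The RefSeq gene list of Xenopus laevis assembly v10.1 holds 68 protein-coding copies under the 48 symbols, and 37 of these were measured. All 7 listed copies of the elongation genes had a probe set, against 1 of 5 listed copies for N-sulfation and 2 of 9 for the glypicans. For xylt1, fam20b, glce, hs3st3a1, gpc4 and sdc3 the L copy was measured and the listed S copy was not, and for b4galt7, hs6st1 and papss2 the S copy was measured and the listed L copy was not. The platform annotation left 16765 probe sets unnamed here, so a gene with no probe set under its symbol may still be read by one of them.

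Signals were set against a floor, the highest of 17 Affymetrix Tag control probe sets (24.4), which are not designed to match frog RNA. A signal near or below it cannot be told from background, and each probe set has its own background and response, so levels of different probe sets are not ranked against each other. Of the 62 probe sets, 57 lay above the floor (91.9%), as did 72.0% of all 32539 probe sets and 78.6% of the 15495 with 1 symbol. Taking each gene copy at its probe set with the highest signal, 34 of 37 copies lay above it (91.9%), beside 80.4% of all 11303 named gene copies. For copies read by 1 probe set, where no highest one is picked, the counts were 19 of 22 for these genes and 77.8% for all. The shares were higher than those of all genes by this count, and no test was made of the difference. In whole embryos a low signal may come from few cells with the transcript or from little of it in each cell, which cannot be told apart.

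**Figure D2:**
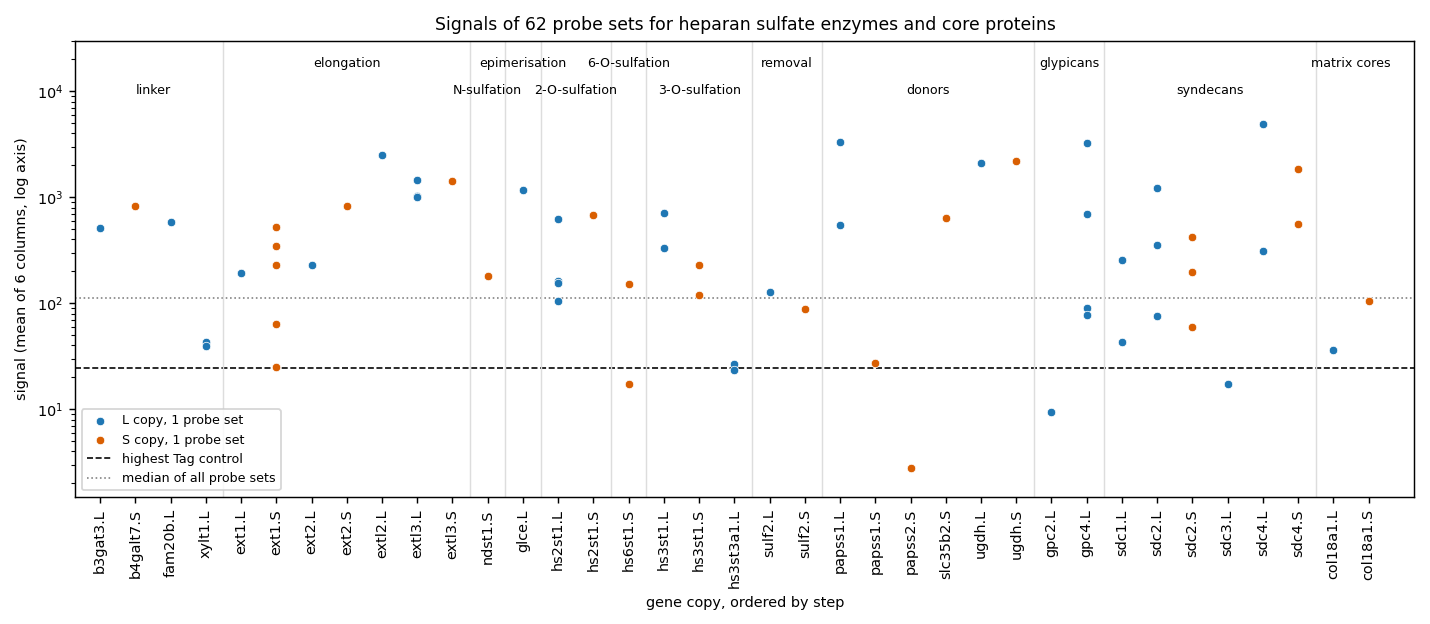
Signal of each of the 62 probe sets (vertical log axis, mean of the 6 columns) for 37 gene copies ordered by step; blue points are L copies, orange points S copies, and each point is 1 probe set. The dashed line is the highest Tag control (24.4) and the dotted line the median of all probe sets (111.9); papss2.S, gpc2.L and sdc3.L have all their points below the dashed line.

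For the linker, all 4 measured copies lay above the floor, beside 80.4% of all named gene copies. The signal was 833 for b4galt7.S, which encodes the enzyme that adds the first galactose of the linker. It was 508 for b3gat3.L, whose product adds the glucuronic acid that completes the linker, and 586 for fam20b.L, the kinase that phosphorylates the linker xylose. The 2 probe sets of xylt1.L, a xylosyltransferase that starts the chain on the core protein, were at 43.5 and 39.1, less than 2 times the floor. Xylosyltransferase has a second gene, xylt2, which was not measured here, so the starting step was read by 1 of its genes and at a low signal.

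For elongation, all 7 copies and all 13 probe sets lay above the floor. Over all genes the shares were 80.4% of named gene copies and 78.6% of probe sets with 1 symbol. Ext1 and Ext2 form the polymerase that lengthens the chain, and ext1, the gene that the morpholino targets, was read by 6 probe sets. The S copy was at 527, 346, 229, 64.3 and 25.3 on its 5 probe sets, and the L copy at 195 on its single one. The ext1.S probe set at 25.3 was 1.04 times the floor, so it adds nothing on whether the transcript is there, while the one at 527 was 21.6 times the floor. For ext2, the S copy was at 832 and the L copy at 230.

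The other elongation genes had signal as well. EXTL3 adds the first N-acetylglucosamine, which commits the linker to heparan sulfate, and its gene extl3 was at 1449, 1019 and 1008 for the L copy and at 1428 for the S copy. These 4 probe sets lay within 1.5 times of each other. EXTL2 in mammals can add an N-acetylglucosamine to a phosphorylated linker, after which the chain is not lengthened, and extl2.L was at 2498.

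The modification steps were each represented by at least 1 copy above the floor. Over all genes, 80.4% of named gene copies lay above it, so this does not set these steps apart. The N-deacetylase/N-sulfotransferase gene ndst1.S, whose product opens the modification of the chain, was at 180 (7.35 times the floor). The epimerase gene glce.L, which turns glucuronic acid into iduronic acid, was at 1166. For hs2st1, which sulfates mainly the iduronic acid, the S copy was at 683 and the L copy at 623, 164, 155 and 105 on its 4 probe sets.

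The 6-O-sulfotransferase was read at hs6st1.S alone, by a pair of probe sets on opposite sides of the floor, at 152 and 17.4. Among the 3-O-sulfotransferases, the product of hs3st1 in mammals makes the antithrombin-binding site of heparin. This gene was above the floor on all 4 probe sets, beside 78.6% of all probe sets with 1 symbol. Its L copy was at 704 and 333 and its S copy at 231 and 119. The other measured gene of this step, hs3st3a1.L, sat at the floor, with 27.0 on one probe set and 23.4 on the other. It counts as above the floor by its higher probe set, by a margin of 1.11 times.

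The removal step was read by sulf2 alone, which encodes an extracellular sulfatase that takes 6-O-sulfate off finished chains. Its L copy was at 128 and its S copy at 88.3, which is 5.23 and 3.62 times the floor. No value was obtained for the other sulfatase gene sulf1, for hpse2 or for heparanase (hpse), which cuts the chain. Cutting of the chain was therefore not read.

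The supply of donors had signals on both sides of the floor. The gene ugdh, which makes the UDP-glucuronic acid used in linker and chain, was at 2114 for its L copy and 2220 for its S copy. The sulfate donor PAPS is made by the PAPS synthases papss1 and papss2. The L copy of papss1 was at 3300 and 544, while papss1.S was at 27.4, 1.12 times the floor. The gene papss2.S was below the floor at 2.82, where the median Tag control was at 2.62. Of the measured PAPS synthase copies, therefore, papss1.L alone was well clear of the floor, and papss2.L was not measured. The Golgi PAPS transporter gene slc35b2.S was at 644.

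Among the glypicans, gpc4 is needed in Xenopus and zebrafish for convergence and extension movements. All 4 probe sets of gpc4.L lay above the floor, at 3276, 700, 91.1 and 77.3, beside 78.6% of all probe sets with 1 symbol. The probe sets at 91.1 and 77.3 have names that differ only in the ending, so they may not be separate readings. The gene gpc2.L, known in mammals from the developing nervous system, was below the floor at 9.51. For the syndecans, 12 of 13 probe sets lay above it, beside 78.6% of all probe sets with 1 symbol. The gene sdc4, which in Xenopus takes part in non-canonical Wnt signalling during gastrulation, was at 4950 and 309 for the L copy and at 1831 and 565 for the S copy.

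The gene sdc2, which acts in the ectoderm of Xenopus embryos in left-right patterning, was at 1232, 357 and 76.4 for the L copy and at 421, 199 and 60.2 for the S copy. A further probe set, annotated to both sdc2.L and sdc2.S and so outside the members, was at 1274. The epithelial syndecan gene sdc1.L was at 256 and 42.8, and sdc3.L, known in other vertebrates mainly from the nervous system, was below the floor at 17.5. The collagen XVIII gene col18a1, a basement membrane core, was at 105 for the S copy and 35.9 for the L copy, both above the floor and both below the median of all probe sets (111.9).

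By that stricter mark, 28 of 37 gene copies lay above the median of all probe sets, beside 66.5% of all named gene copies at their highest probe set, and 42 of 62 probe sets did, beside 61.6% of those with 1 symbol. The 9 copies that did not reach it were xylt1.L, hs3st3a1.L, sulf2.S, papss1.S, papss2.S, gpc2.L, sdc3.L, col18a1.L and col18a1.S. Of the enzymes and donors, 26 of 27 copies lay above the floor (96.3%), and of the core proteins 8 of 10 (80.0%), beside 80.4% of all named gene copies. The share for the cores was close to that of all genes.

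Both subgenome copies were measured for 11 genes: ext1, ext2, extl3, hs2st1, hs3st1, sulf2, papss1, ugdh, sdc2, sdc4 and col18a1. In all 11, each copy had a probe set above the floor. The same held for 77.6% of the 2009 genes of the profile with both copies measured. For papss1 the S copy was above it by a narrow margin (27.4), at which a signal cannot be told from background. For ugdh and extl3 the highest signals of the copies were close, at 2114 and 2220 and at 1449 and 1428. Since the copies were read by different probe sets, whose power to separate the copies was not tested, these values do not show which copy had more RNA.

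**Figure D3:**
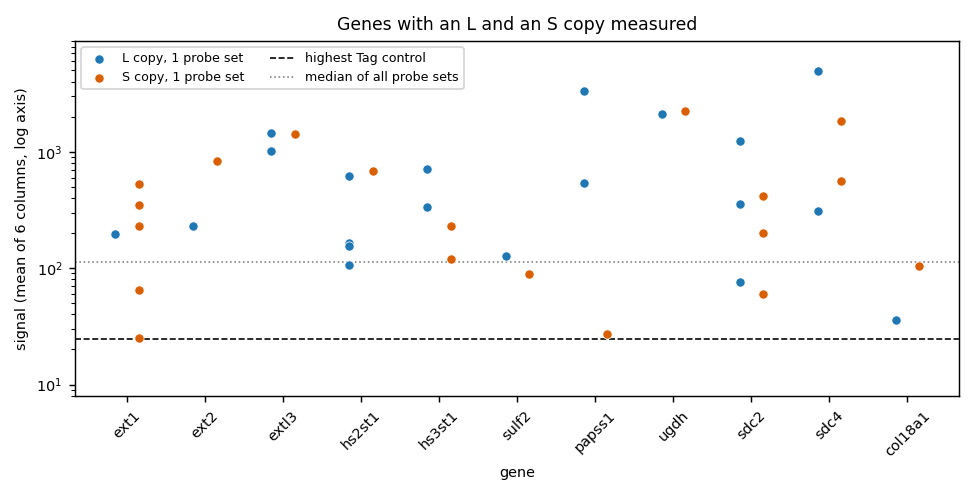
Signal of each probe set (vertical log axis, mean of the 6 columns) for the 11 genes with an L copy (blue) and an S copy (orange) measured. The lines are the highest Tag control (24.4) and the median of all probe sets (111.9); the highest point of each copy lies above the dashed line, with papss1.S at 27.4 just above it.

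Probe sets of 1 gene copy often gave different levels. Of the 15 member copies with several probe sets, 11 had a highest signal at least 2 times the lowest (73.3%), beside 75.3% of 2702 such copies in the whole profile. A spread of 10 times or more was found for 4 of 15, beside 33.9% in the profile. They were gpc4.L (42.4 times), sdc2.L (16.1), sdc4.L (16.04) and ext1.S, whose lowest probe set lay at the floor, so that its ratio is not given. The median ratio was 5.98 for the member copies and 4.66 for all. These shares and medians include copies whose lowest probe set lay at or below the floor, such as ext1.S. For such copies the ratio is in part a ratio to background. The probe sets of extl3.L, all far above the floor, lay within 1.44 times of each other. Those of xylt1.L (1.11) and hs3st3a1.L (1.15) also lay close together, but at or under 2 times the floor, where alike signals may be alike background.

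In 2 of the 15 copies, hs6st1.S and hs3st3a1.L, the probe sets fell on both sides of the floor, beside 21.0% of copies in the profile. The hs6st1.S probe sets share the cluster number in their names and differ in the letter S (17.4) or A (152), by which Affymetrix names mark sense or antisense orientation to the source sequence. Across the members, 46 of 49 probe sets named S and 11 of 13 named A lay above the floor, beside 74.8% and 66.7% of all probe sets with those letters. Those named A were at 43.5 for xylt1.L, 346 and 25.3 for ext1.S, 1019 for extl3.L, 152 for hs6st1.S and 23.4 for hs3st3a1.L. The others were sulf2.L (128), gpc2.L (9.51), gpc4.L (700, 91.1 and 77.3), sdc2.S (421) and sdc4.L (4950). Whether orientation had a part in these levels was not tested. The levels of this family are thus levels of probe sets, and a gene read by 1 dim probe set, such as gpc2.L, sdc3.L or papss2.S, was not detectable by that probe set rather than shown to be absent.

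**Figure D4:**
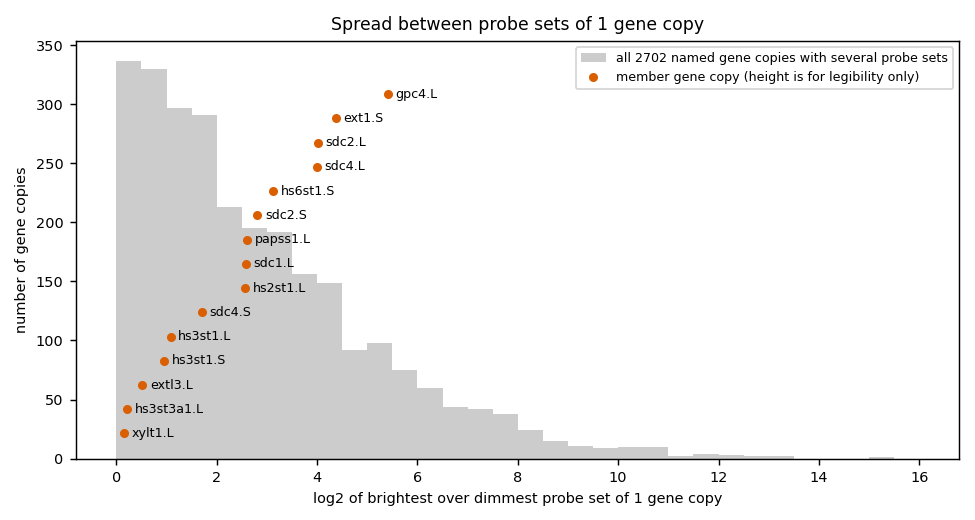
Histogram of the log2 ratio of the highest to the lowest signal within a gene copy, for all 2702 named gene copies with several probe sets (grey, number of copies on the vertical axis), with the 15 member copies as orange points whose height has no meaning. The members lie between 0.15 (xylt1.L) and 5.41 (gpc4.L), within the range of the other genes.

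Related gene lists were counted in the same way, and are set beside the 80.4% of all named gene copies above the floor. Each value for a copy of these lists and of the marker lists is that of its probe set with the highest signal. For chondroitin and dermatan sulfate, which share the linker with heparan sulfate, 5 of 5 measured copies lay above the floor, read from 4 of 16 genes. They were chpf.L (258), a chondroitin polymerising factor, and the sulfotransferase genes chst7.L (956), chst12.L (244), chst13.L (379) and chst13.S (576). For the supply of sugar nucleotides and sulfate, read from 11 of 17 genes, 12 of 13 copies lay above the floor. Among these was gfpt1.S (6489), the entry enzyme of the hexosamine pathway that leads to N-acetylglucosamine. The gene ugp2, whose product makes UDP-glucose, the substrate of Ugdh, was at 1692 for its L copy and 372 for its S copy. The sulfate transporter gene slc26a1.L was below the floor at 10.7, and bpnt1.L was at 25.3, close to the floor of 24.4.

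On the list for core shedding and lipid-anchor release, 5 of 5 measured copies lay above the floor, beside 80.4% of all named gene copies. Whether their products release heparan sulfate cores at this stage was not tested. They include adam10.S (5604) and adam17.L (207), membrane proteases that cleave surface proteins, and notum.L (370), a secreted hydrolase first described as acting on glypicans and now known to remove the lipid of Wnt proteins. The adam10.S value is the highest of 3 probe sets, whose highest signal was 189 times the lowest. The membrane protease gene mmp14.L was at 34.2 and pgap1.L, an enzyme of lipid-anchor remodelling, at 362. The listed gene gpld1 was not measured. In the lysosome, where chains are broken down, 2 of 8 listed genes were measured. The sulfamidase gene sgsh.L was at 136 and the iduronidase gene idua.L was below the floor at 14.7. The phosphatase of the linker, pxylp1, was not measured here.

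The list of other proteoglycans and part-time carriers stood on the other side: 1 of 10 copies lay above the floor, vcan.L (versican, a chondroitin sulfate core) at 271. The other 9 were bcan.L, bgn.L, bgn.S, cd44.L, dcn.L, dcn.S, nrp1.L, nrp2.S and spock2.S, with signals from 1.45 (nrp1.L) to 22.8 (nrp2.S). Most of these are known from nervous system, connective tissue or vessels of later stages. This list, read from 8 of 17 genes, had a lower share above the floor (10.0%) than the heparan sulfate cores (80.0%) or all named copies (80.4%). Of the 9 dim copies, 8 were read by 1 probe set, and the differences were not tested.

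**Figure D5:**
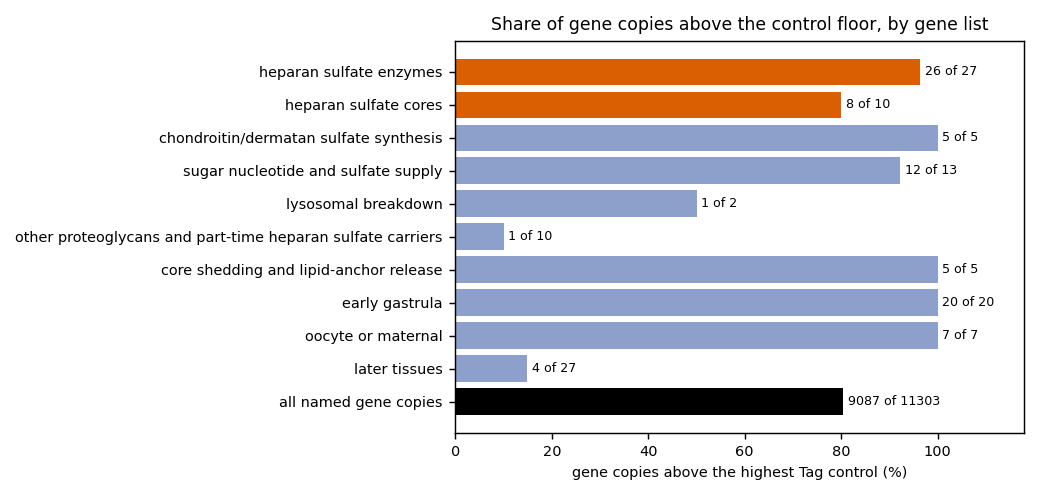
Percentage of measured gene copies above the highest Tag control (horizontal axis, from 0) for the heparan sulfate enzymes and cores (orange), related and marker lists (blue) and all named gene copies (black, 80.4%), with counts beside the bars. The list of other proteoglycans (10.0%) and the markers of later tissues (14.8%) have the lowest shares.

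Marker lists were read to check the labelled stage. All 20 copies of early gastrula genes, such as tbxt, gsc, vegt and sox17a, lay above the floor, with signals from 360 to 12260. So did 7 of 7 copies of oocyte or maternal genes. The signal does not tell maternal transcripts from newly made ones, for vegt or any other gene of these lists. Over all named gene copies, 80.4% lay above the floor and 66.5% above the median of all probe sets. Of 27 copies for erythrocyte, muscle, heart, neuron, liver, lens and pancreas, 4 lay above the floor and 0 above the median of all probe sets. The 4 were ckm.L (104), tnni2.S (37.8), elavl3.L (51.6) and gap43.S (27.0). The 4 globin copies of the list, hba1.S, hba3.L, hbe1.L and hbg1.L, were at most at 20.2, and globin copies outside the list were not counted.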

How the data were processed

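Gene expression was measured in 6 whole-embryo samples on Affymetrix arrays. Each deposited value is a linear intensity per probe set, printed to 2 decimals. Per the submitters' processing notes MAS5 was used, while the version, scaling target, detection calls and filters were not given in the sources consulted. The 6 columns were first compared in pairs: for each probe set, the range of factors that turns one value into the other was computed, given rounding by up to 0.005. In a simulation with log2 noise of SD 0.15, 32406 of 32635 probe sets fell outside rounding around the median ratio. In simulated proportional columns 0 did, which was fixed by how they were made. Because the columns of the table used here were proportional, they were averaged into 1 profile, no groups were compared, and no test was run. Whether this proportionality was already in the deposit was not tested.

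The table has 32635 rows, including 96 Affymetrix controls. Among the remaining 32539 probe sets, 15495 had 1 annotated symbol, 279 had several and 16765 had none. Symbols were used as annotated; all 62 member probe sets had a gene ID in the RefSeq gene list, and 0 symbols differed there. No probe, transcript, protein or genome sequence was used, so none is printed and the planned protein comparison was not made. The members, lists and floor were chosen with earlier results of these data known. All member copies are named; in each related list the rule names up to 6 copies below the floor in alphabetical order, and further names there (3 more proteoglycan copies, and examples above the floor) were chosen after their values were seen. The number of arrays limits precision, and here it is 1 profile. Alternatives changed the floor, the columns used, the symbols, the probe sets admitted and how a copy is summarised. Python 3.11.15, numpy 2.4.6, pandas 2.3.3 and matplotlib 3.10.9 were used.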

Additional observations from a re-analysis of the deposited data

How the results depend on the processing

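No paired analysis was possible because all 6 columns of the table hold the same profile. The count of 34 of 37 gene copies above the floor was 37 with the median Tag control (2.62) as the floor, 30 and 29 at 2 and 4 times the highest Tag control, and 28 at the median of all probe sets. It was 34 at the median probe set of each copy and 32 at the dimmest, where hs6st1.S and hs3st3a1.L fell below. Probe sets above the floor ran from 42 to 62 of 62 over these floors. When only plain name endings (without s, x or a) were admitted, 48 of 53 probe sets and 32 of 35 gene copies lay above the highest Tag control. The copies hs3st1.L and ugdh.L, read only by probe sets with other endings, then had no value. Shares of all named gene copies were counted at the highest Tag control (80.4%) and at the median of all probe sets (66.5%). They were not counted at the other floors, endings or summaries, so those counts describe the members alone. The first column alone, and leaving out any column in each of the 6 cases, gave 34 copies and 57 probe sets, which proportional columns must give. Updated symbols and shared probe sets also left the copies at 34. That was fixed too, since 0 member symbols changed and the 1 shared probe set reads sdc2 copies already above the floor. At 2 and 4 times the highest Tag control and at the median of all probe sets, some larger steps lost 1 copy. The linker fell from 4 to 3 copies, 3-O-sulfation from 3 to 2 and the donors from 5 to 4. Such losses stay within 1.5 times. Counts for single steps moved by over 1.5 times in 7 cases, all in steps with 1 or 2 copies. They were the glypicans at the median Tag control (2 of 2), the matrix cores at 2 times (1 of 2), at 4 times (1 of 2) and at the median of all probe sets (0 of 2), removal at 4 times and at that median (1 of 2 each), and 6-O-sulfation at the dimmest probe set (0 of 1). All 30 column pairs were also proportional with rounding taken 2 times as wide and over probe sets above 100. Both outcomes were fixed by the main result and add no support. The first only widens the range of factors of each probe set, and the second only leaves probe sets out.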

Other observations

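The actin control probe sets differed along the transcript in the same profile. The one at the 3′ end was at 20414, those in the middle at 11137 and 13260, and the one at the 5′ end at 4.68, under the Tag control floor. For gapdh the 3′, middle and 5′ probe sets were at 2119, 2950 and 1558. Where along a transcript the 62 member probe sets lie was not examined, so its part in the spread within ext1.S, gpc4.L, sdc2.L and sdc4.L was not tested.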
